A study of Mus musculus with 2 samples.

Results

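The genes described here encode the contractile apparatus of skeletal muscle and the proteins that serve it, measured in the back skin of mice. They were chosen by name, as a list of 38 symbols looked up in the annotation of the array, out of 12393 genes that the array could name. Of the 38, 35 had at least 1 probe set, 50 probe sets in all. Neb, Mybpc1 and Mybpc2 had none. Of the 35, 27 were measured, which means that the brightest probe set of the gene lay above a floor of 34.7 signal units on at least 1 array, and 26 of these lay above it on both arrays. The other 8 lay below the floor on both arrays.

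The animals were 10 days old. The transgenic mice expressed, in keratinocytes, an aryl hydrocarbon receptor (AhR) that is active without a ligand, under the title K14Ahr. AhR is a transcription factor that normally responds to dioxins and related compounds. The other group was non-transgenic, wild-type littermates. The labels give no strain, sex, founder line or number of animals. They name keratinocytes as the site of expression and do not speak of muscle. There was 1 array of whole-skin RNA for each genotype, so no difference below could be tested, no value has a replicate error, and each comparison is of these 2 arrays. In RNA of whole skin, fewer cells of a type and less RNA per cell cannot be told apart.

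The back skin of a mouse carries its own skeletal muscle, the panniculus carnosus, a thin sheet below the dermis and its fat that is made mainly of fast fibres. In each fibre, myosin thick filaments pull on actin thin filaments, calcium released from the sarcoplasmic reticulum switches the pull on through troponin and tropomyosin, and creatine kinase and glycolysis supply the energy. Most of these proteins come in isoforms: embryonic and perinatal forms are replaced by adult ones around birth and weaning, and fast and slow fibres use different genes for the same part.

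The sarcomere genes were lower on the transgenic array than on the wild-type array, by less than 2-fold for most of them. The median log2 ratio (transgenic signal over wild-type signal) was -0.51 over the 27 measured members, against -0.05 over all 8894 measured genes, whose 5th and 95th percentiles were -0.64 and 0.70. Of the 27, 24 lay below 0, and among all measured genes 56.4% did. Over the 26 members above the floor on both arrays it was 23, beside 56.8% of such genes. At least 1.5-fold lower were 11 of the 27, where the share of all measured genes was 6.38%, and 1 member was at least 1.5-fold higher, where the share was 6.8%. At least 2-fold lower were only Myh8 and Pgam2, beside 1.09% of all measured genes, and at least 2-fold higher was only Tpm2, beside 2.27%. The members had been picked as muscle genes with an earlier reading of these arrays known, so the counts describe them and do not test them.

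**Figure D1:**
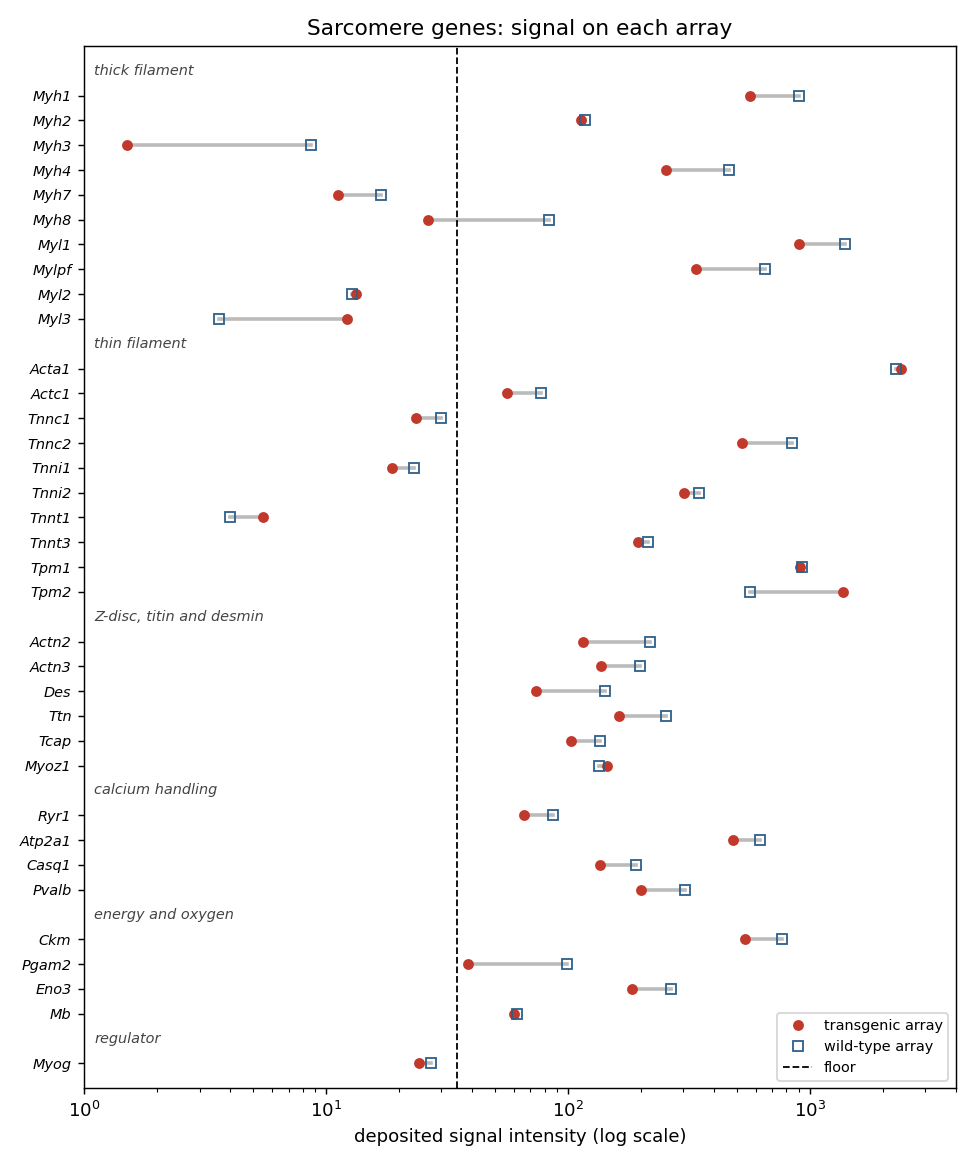
Deposited signal (log scale) of the brightest probe set of each of the 35 sarcomere genes with a probe set, grouped by role, on the transgenic array (filled circles) and the wild-type array (open squares). The dashed line is the floor of 34.7. Right of it most circles stand left of their squares, and the slow isoforms (Myh7, Myl2, Myl3, Tnnc1, Tnni1, Tnnt1) all lie left of it.

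The scale of technical scatter can be read from genes with several probe sets. In 2535 genes at least 2 probe sets exceeded the floor on the 2 arrays alike, and the log2 ratios of probe sets of the same gene had an SD of 0.264 within a gene. The SD of a difference between 2 such ratios is 0.373. Both come from probe sets that share an RNA and a hybridisation, so they leave out the spread between animals and between arrays, and ratios further apart than this are not thereby shown to differ. Signals of different probe sets are not compared as levels, since each probe set has its own brightness.

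**Figure D2:**
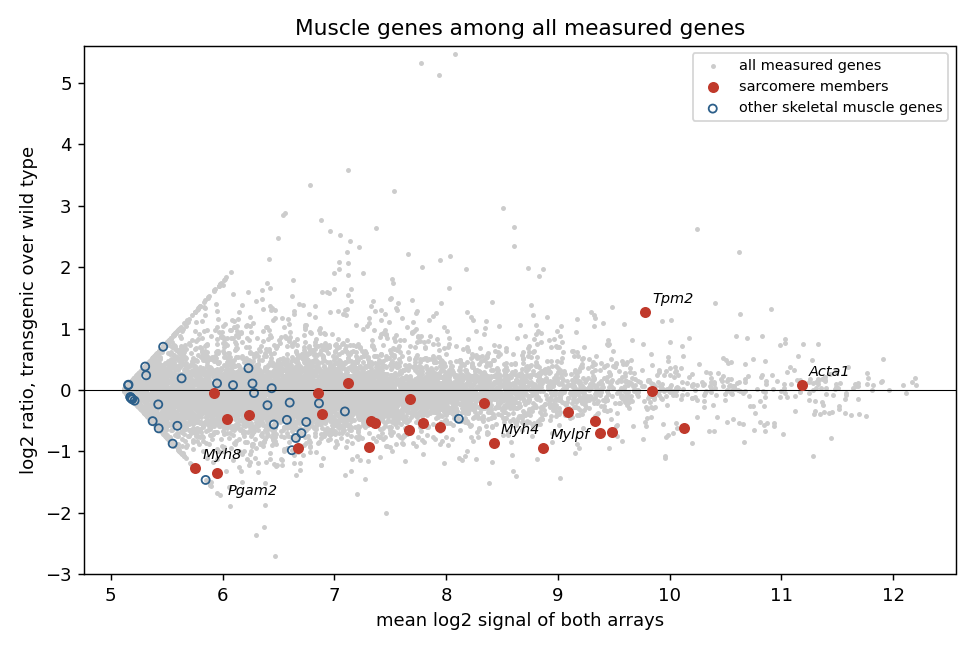
Log2 ratio (transgenic over wild type) against the mean log2 signal of both arrays for 8894 measured genes (grey), the 27 measured sarcomere genes (red) and 35 other skeletal muscle genes (open blue). The sarcomere genes lie mostly below 0, with Tpm2 (1.27) as the exception above 1. Among the brightest, Acta1 (0.07) and Tpm1 (-0.02) lie near 0 and Myl1 (-0.63) below it.

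In the thick filament all 6 measured members lay below 0, with a median of -0.77 and a range from -1.27 (a bound) to -0.05. The heavy chain genes encode the motor itself. Myh4, the heavy chain of the fastest (2B) fibres, read 254.7 in transgenic skin and 463.7 in wild-type skin, a log2 ratio of -0.86. Myh1, the fast 2X heavy chain, read 564.5 against 904.2 by its brightest probe set (-0.68). Another probe set of Myh1 read 472.0 against 982.5 (-1.06), so both probe sets were lower and the dimmer passed 2-fold. The remaining probe set read 3.5 against 16.6, below the floor on both arrays. Myh2, the fast 2A heavy chain, was nearly equal, with 113.6 against 117.2 (-0.05). The heavy chain genes are close paralogues and probe sequences were not checked, so reading of neighbouring isoforms by the same probe set, above all by the 2 bright sets of Myh1, whose names carry a suffix for possible cross-hybridisation or several transcripts, is uncertain.

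The light chains sit on the neck of the motor. Mylpf, the fast regulatory light chain, read 337.5 against 649.6 (-0.94), and Myl1, the fast essential light chain, read 900.6 against 1391.2 (-0.63). Both were lower on the transgenic array by more than 1.5-fold.

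Among developmental isoforms the perinatal heavy chain Myh8 stood out. It read 26.4 in transgenic skin, below the floor, and 83.8 in wild-type skin, above it, so it was at least 2.42-fold lower (log2 ratio at most -1.27). As the only member above the floor on just 1 array, it could enter the comparison only by being lower. Myh3, the embryonic heavy chain, read 1.5 against 8.7, below the floor on both arrays. Actc1, the cardiac alpha-actin that developing skeletal muscle also makes, read 56.0 against 77.4 (-0.47).

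The contrast of developmental with adult isoforms rested on few genes. The 2 measured developmental genes, Myh8 and Actc1, had a median of -0.87, and the 4 measured adult counterparts, Myh1, Myh2, Myh4 and Acta1, a median of -0.36, a difference of -0.51. By role, Myh8 minus Myh4 was -0.41 and Actc1 minus Acta1 was -0.54. These differences stand beside an SD of 0.373 for a difference between probe sets of a gene, and the one for Myh8 uses a bound. A floor set at the 60th percentile of signals bounds Myh8 at -0.25, and the difference of the medians then turned to 0.17. The data therefore set no firm order between developmental and adult isoforms.

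In the gene order of the mouse assembly GRCm38.p6, Myh3, Myh2, Myh1, Myh4 and Myh8 follow each other on chromosome 11 with no other protein-coding gene between them. Read in that order, after Myh3 (below the floor), the log2 ratios were -0.05, -0.68, -0.86 and at most -1.27. Myh1 and Myh4 differ by less than the SD of a difference between probe sets of a gene. The order was seen after the values were known and is given as a description.

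Promoter windows from RefSeq (GRCm38.p6), covering 250 bases before and 50 after the start, were at hand for 32 of the 38 members. The windows of Myh8 and Pgam2 are shown because these genes were the 2 at least 2-fold lower, and that of Myh4 as the adult neighbour of Myh8. All 3 lie on chromosome 11, at chr11:67276874-67277173 (plus strand), chr11:5803747-5804046 (minus strand) and chr11:67237562-67237861 (plus strand) in the order Myh8, Pgam2, Myh4. Capitals mark matches, on either strand, to the muscle E-box CAGCTG, which myogenic factors such as MyoD bind, to the MEF2 site and to the CArG box of serum response factor. A MEF2 match can overlap a TATA-like stretch.
Myh8: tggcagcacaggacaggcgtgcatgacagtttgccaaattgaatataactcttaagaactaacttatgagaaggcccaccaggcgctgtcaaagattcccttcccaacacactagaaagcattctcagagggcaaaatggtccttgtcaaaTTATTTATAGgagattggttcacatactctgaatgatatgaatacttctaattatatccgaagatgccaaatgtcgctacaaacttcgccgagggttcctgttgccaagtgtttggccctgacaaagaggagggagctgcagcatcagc
Pgam2: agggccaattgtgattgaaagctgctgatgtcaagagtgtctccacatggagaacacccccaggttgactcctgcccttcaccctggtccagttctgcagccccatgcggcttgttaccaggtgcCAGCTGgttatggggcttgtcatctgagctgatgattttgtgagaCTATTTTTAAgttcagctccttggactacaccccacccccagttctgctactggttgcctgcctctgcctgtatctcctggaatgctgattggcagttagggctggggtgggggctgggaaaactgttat
Myh4: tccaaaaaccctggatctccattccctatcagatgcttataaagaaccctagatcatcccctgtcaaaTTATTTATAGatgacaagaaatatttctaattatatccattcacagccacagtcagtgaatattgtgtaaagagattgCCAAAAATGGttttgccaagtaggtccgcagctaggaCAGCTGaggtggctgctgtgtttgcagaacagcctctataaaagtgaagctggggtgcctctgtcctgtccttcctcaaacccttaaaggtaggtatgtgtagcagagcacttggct
All 3 windows hold a MEF2 match, at -99 in Myh8, -80 in Pgam2 and -182 in Myh4, counted from the start to the first base of the match. The matches of Myh8 and Myh4 have the same letters, TTATTTATAG. The E-box stands at -125 in Pgam2 and -67 in Myh4 and the CArG match at -104 in Myh4.

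Across the 32 members with a window, 15 held the E-box (46.9%), against 18.3% of 27025 genes with a window. The MEF2 site was found in 6 (18.8%, against 3.7%), namely Myh1, Myh4, Myh8, Pgam2, Pvalb and Ttn. The CArG box was found in 4 (12.5%, against 1.81%), namely Acta1, Actc1, Myh4 and Myl3. The core letters bound by AhR, GCGTG, were found in 9 (28.1%), against 35.2% of all genes, with 1 match in Myh8 and none in Pgam2 or Myh4. A match is a run of letters and not a shown binding site.

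The thin filament divided. Among 7 measured members 5 lay below 0, with a median of -0.15. The fast troponins, which carry the calcium switch, were all below 0 by different amounts. Tnnc2, the fast calcium-binding subunit, read 521.9 against 846.8 (-0.70). Tnni2, the fast inhibitory subunit, read 300.8 against 346.9 (-0.21) and, by another probe set, 186.9 against 238.1 (-0.35), with 1 more below the floor. Tnnt3, the fast tropomyosin-binding subunit, read 194.5 against 215.1 (-0.15). The ratios of Tnnt3 and of the brightest set of Tnni2 are smaller than the SD between probe sets of a gene.

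Acta1, the adult skeletal alpha-actin, was bright and nearly equal, with 2384.5 in transgenic and 2266.0 in wild-type skin (0.07). Actin coding sequences are close to identical between paralogues, its 1 probe set carries a suffix, and whether it also reads other actins was not tested. The smooth muscle actin gene Acta2 read 945.0 against 845.7 (0.16).

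The tropomyosins, which lie along actin and are also made by smooth muscle and non-muscle cells, held the 1 member at least 2-fold higher. Tpm1 read 908.5 against 923.9 (-0.02), and its 2 other probe sets gave 0.24 and -0.13. Tpm2 read 1365.4 in transgenic skin and 567.9 in wild-type skin by its brightest probe set, 2.4-fold higher (1.27). The other 3 probe sets of Tpm2 read 460.8 against 352.6 (0.39), 174.8 against 172.0 (0.02) and 143.2 against 160.9 (-0.17). The only one without a suffix in its name was the last, so the probe sets of Tpm2 disagree on size and direction, and which transcripts each reads is not known here.

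**Figure D3:**
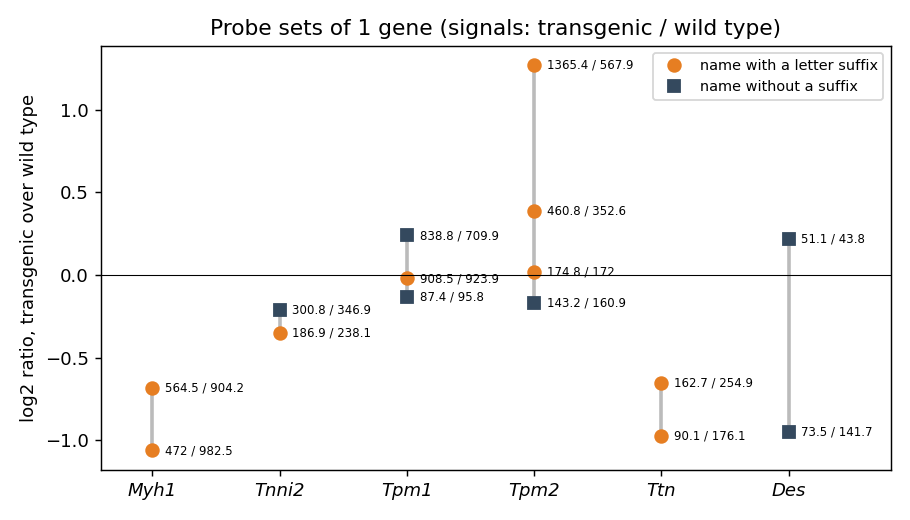
Log2 ratio (transgenic over wild type) for each measured probe set of the 6 members with more than 1, with both signals printed beside each point (transgenic first). Circles are probe sets whose name carries a letter suffix and squares those without. Myh1, Tnni2 and Ttn lie below 0 by every set, while the sets of Tpm1, Tpm2 and Des fall on both sides.

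At the Z-disc and along the elastic filament 5 of 6 members lay below 0, with a median of -0.59. Actn2, the alpha-actinin that crosslinks thin filaments in all fibres, read 115.0 against 218.9 (-0.93), and Actn3, its fast-fibre counterpart, 136.7 against 197.8 (-0.53). Ttn, the gene of titin, the molecular spring, read 162.7 against 254.9 (-0.65) and 90.1 against 176.1 (-0.97) by its 2 probe sets, and Tcap, the titin cap, 103.4 against 135.2 (-0.39). Des, the gene of the intermediate filament desmin, read 73.5 against 141.7 (-0.95) by 1 probe set and 51.1 against 43.8 (0.22) by the other, which lies near the floor. Myoz1, which binds calcineurin at the Z-disc of fast fibres, read 144.8 against 133.8 (0.11) and was the 1 gene of this group above 0.

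All 4 calcium handling genes lay below 0 within a narrow range, from -0.61 to -0.37. Pvalb, the gene of the fast-fibre calcium buffer parvalbumin, read 200.2 against 305.1 (-0.61). Casq1, the calcium store protein of the sarcoplasmic reticulum, read 135.3 against 191.2 (-0.50). Ryr1, the calcium release channel, read 65.6 against 86.9 (-0.41) and Atp2a1, the fast-fibre calcium pump, 481.0 against 620.1 (-0.37).

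Among the genes of energy supply, Pgam2, the muscle phosphoglycerate mutase of glycolysis, had the lowest ratio among members above the floor on both arrays. It read 38.6 in transgenic skin, just above the floor, and 98.7 in wild-type skin, 2.56-fold lower (-1.35). Under a floor at the 60th percentile the log2 ratio was bounded at -0.48. Eno3, the muscle enolase of the same pathway, read 183.5 against 267.0 (-0.54), and Ckm, muscle creatine kinase, 539.9 against 769.3 (-0.51). Mb, the gene of the oxygen store myoglobin, was nearly equal at 59.6 against 61.8 (-0.05), with another probe set below the floor on both arrays.

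The contrast of fast with slow isoforms could not be drawn as a difference. All 11 fast isoforms with a probe set were measured, all 11 lay below 0 (56.4% of all measured genes did), and 6 were at least 1.5-fold lower (6.38%). Their median was -0.61 and their range ran from -0.94 (Mylpf) to -0.05 (Myh2). Myoz1 and Myoz3, also described here as genes of fast fibres, were not on this list, and both lay above 0. Myoz1 was at 0.11, and Myoz3 was at least 0.70 and could enter only by being higher. None of the 6 slow isoforms with a probe set rose above the floor on either array. Myh7, the slow heavy chain, read 11.2 against 16.9, and 2 further probe sets shared by Myh7 and Myh6 read 8.3 against 3.1 and 3.7 against 1.2. Myl2 and Myl3, the slow and ventricular light chains, read 13.3 against 12.8 and 12.2 against 3.6. The slow troponins Tnnc1, Tnni1 and Tnnt1 read 23.6 against 29.9, 18.7 against 23.2 and 5.5 against 4.0. Signals this low have no order here, so the arrays say nothing of whether these slow isoforms differed between the genotypes. With lower or no floors values can be written for them, at signals that carry little weight. Under a floor at the 20th percentile, 5 slow genes had a median of -0.31 and ran from -0.51 to 0.06, and the 11 fast genes a median of -0.61. Where 16 was added to every signal and no floor was used, which pulls dim genes towards 0, the 6 slow genes had a median of -0.08 and ran from -0.27 to 0.52, and the fast genes a median of -0.57.

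**Figure D4:**
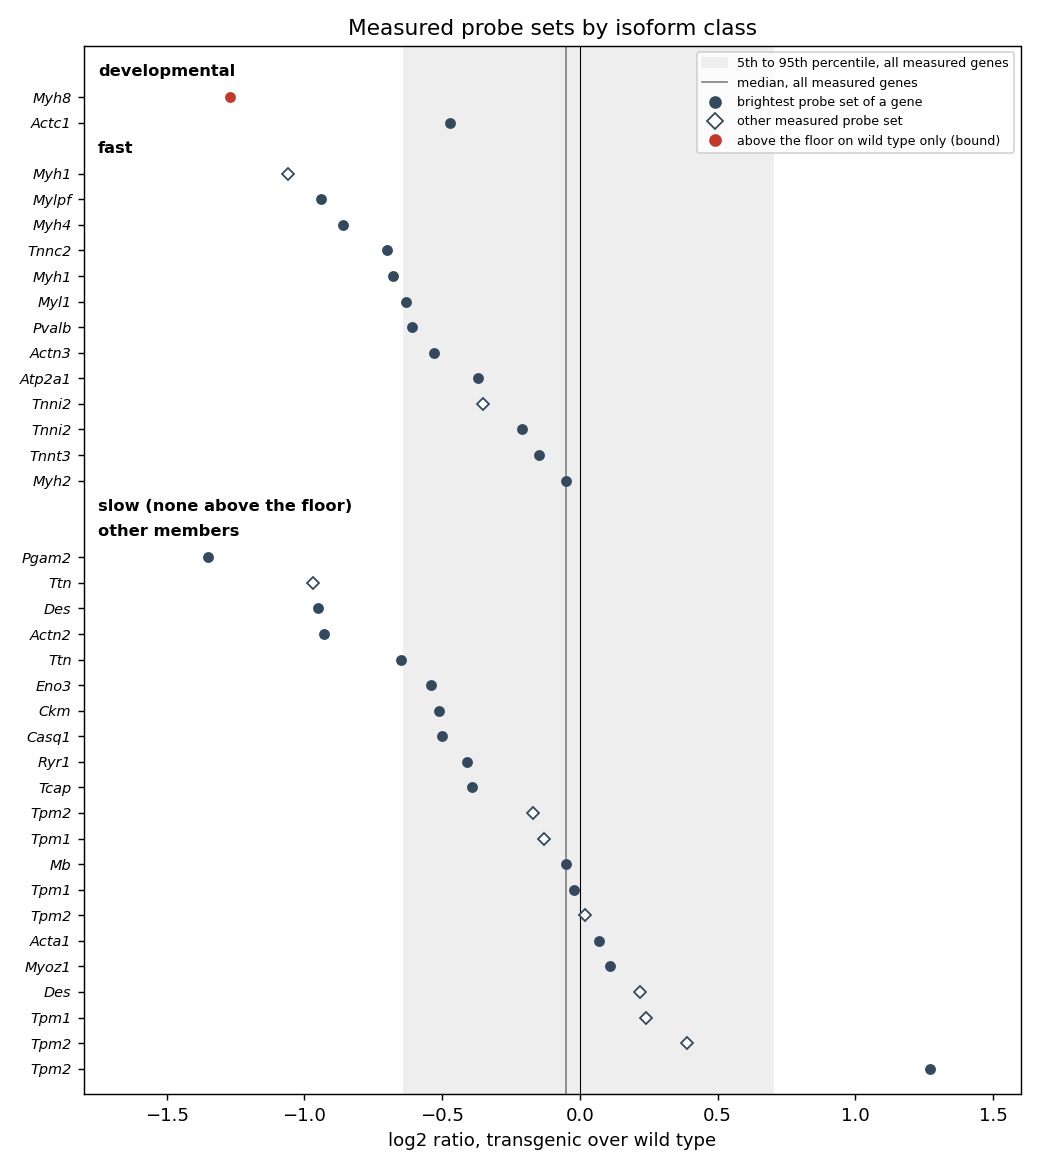
Log2 ratio (transgenic over wild type) of each of the 36 measured probe sets of the members, by isoform class. The grey band spans the 5th to 95th percentile of all measured genes (-0.64 to 0.70), filled circles are the brightest probe set of a gene, open diamonds other probe sets, and the red circle a bound. Every measured probe set of the genes listed as fast isoforms lies below 0, and no listed slow isoform is above the floor.

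Counted by probe set and not by gene, 29 of the 36 measured probe sets of the members lay below 0, where the share of all measured probe sets of named genes was 56.9%. The 7 above 0 belonged to Acta1, Myoz1, Des, Tpm1 and Tpm2.

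Myog, the myogenic regulator myogenin that drives myoblasts to differentiate, read 24.3 against 27.2, below the floor on both arrays. Of the 11 genes listed for myogenic cells, 8 had a probe set and 3 were measured. The satellite cell factor Pax7 read 28.5 against 37.6 and the determination factor Myod1 32.1 against 37.8, both at most -0.12, and Mef2c read 50.5 against 48.1 (0.07). Pax7 and Myod1 exceeded the floor on the wild-type array only, so they could enter only by being lower. The other 5 genes with a probe set were under the floor in both genotypes.

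A separate list of 65 other skeletal muscle genes held 50 with a probe set and 35 measured. Of these, 24 lay below 0 (56.4% of all measured genes did), 6 were at least 1.5-fold lower (6.38%), 1 was at least 1.5-fold higher (6.8%), and the median was -0.17, against -0.05 over all measured genes. Sypl2, a protein of the triad membrane, read 31.7 against 95.8 (at most -1.47), and Dmd, the gene of dystrophin, 70.0 against 138.2 (-0.98). Trdn, the gene of the triad protein triadin, read 12.3 against 63.6, and its bound of at most -0.87 sets no order between it and the other 2 genes. Above 0 were, among others, Myoz3, a Z-disc protein of fast fibres, with 56.5 against 34.3 (at least 0.70), and Myl4, an embryonic and atrial light chain, with 45.2 against 34.0 (at least 0.38). Of the genes 1.5-fold lower, Sypl2, Trdn and Cavin4 (34.2 against 53.5) exceeded the floor on the wild-type array only, so they could enter only by being lower. Hrc (-0.78), Smpx (-0.70) and Dmd exceeded it on both arrays. Myoz3, the 1 gene 1.5-fold higher, exceeded it on the transgenic array only and could enter only by being higher. Among smaller ratios, Cacng1, Tmod4, Capn3, Cox7a1 and Asb5 exceeded the floor on the wild-type array only. Jph1, Dysf and Myl4 exceeded it on the transgenic array only. Entry fixed the sign of each of these genes, so part of the 24 below 0 follows from the floor. Most of this list was dim, and under a floor at the 60th percentile its median was -0.39 over 16 genes. The acetylcholine receptor subunits of the immature (Chrng) and mature (Chrne) synapse, another developmental and adult pair, lay below the floor on both arrays.

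Of the sarcomere genes listed as fast or slow isoforms, the fast ones with a probe set were measured on these arrays. The slow ones could not be judged, since a dim probe set does not show that its transcript is absent. Of 7 markers of heart muscle, another tissue with sarcomeres, 5 (Myh6, Tnnt2, Tnni3, Myl7 and Nppa) lay under the floor in both genotypes, whereas Mybpc3 read 108.6 against 110.4 (-0.02) and Nppb 153.9 against 74.2 (1.05). Smooth muscle and pericyte markers had a median of -0.08 over 8 measured genes, none of them 1.5-fold apart, from Synpo2 (-0.40) and Smtn (-0.33) to Myh11 (0.30) and Myocd (0.35), and their summed signal was 1704.4 against 1701.8.

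Lists for other tissue of the skin had medians near or above 0. The subcutaneous fat, which lies next to the muscle sheet, had a median of -0.03 over 9 measured adipocyte markers, none 1.5-fold apart, from Fabp4 (-0.26) and Car3 (-0.25) to Dgat2 (0.44) and Cidec (0.51), with a summed signal of 5328.6 on the transgenic and 5746.6 on the wild-type array. The middle value of the adipocyte list was that of Pck1 (33.4 against 35.4, at most -0.03). This gene exceeded the floor on the wild-type array only and could enter only by being lower. The lists for endothelium (median 0.12 over 8 genes, sums 673.7 and 603.1), fibroblasts (0.23 over 10, sums 10345.1 and 10701.5) and Schwann cells and nerve (0.33 over 7, sums 932.3 and 834.3) lay above 0. Their extremes were Kdr (0.65), Cdh5 (0.38), Egfl7 (-0.09) and Tek (at most -0.54) in endothelium, Pdgfra (1.40), Dcn (0.49), Mfap5 (-0.44) and Col1a1 (-0.54) in fibroblasts, and Ncmap (at least 0.59), Mag (at least 0.58), Sox10 (-0.05) and Mbp (-0.35) in nerve. Tek exceeded the floor on the wild-type array only, and Ncmap and Mag on the transgenic array only, so each could enter only in its own direction. The summed fibroblast signal was nevertheless slightly lower on the transgenic array. By comparison the brightest probe sets of all 35 members summed to 10479.0 on the transgenic and 12462.4 on the wild-type array. Of this the 6 measured and 4 dim thick filament genes gave 2235.5 and 3651.7. The thin filament genes, with Acta1 and Tpm2, went the other way and gave 5779.4 and 5301.1. The Z-disc, calcium handling and energy groups each summed lower on the transgenic array, and Myog, the only regulator, lay below the floor on both arrays.

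The keratinocyte and macrophage lists had medians above 0. The 9 measured keratinocyte markers had a median of 0.56, from Trp63 (-0.29) and Dsp (0.01) to Krt10 (0.75) and Krt1 (2.61), and summed to 18663.8 against 11974.3. All 10 macrophage markers lay above 0, 7 of them at least 2-fold, with a median of 1.46 and sums of 2302.6 and 811.9. Their lowest were Adgre1 (0.54) and Cd14 (0.83) and their highest Mrc1 (2.43) and C1qa (2.59). Of the 10, Cd163 (87.2 against 25.1, at least 1.33) exceeded the floor on the transgenic array only. It could enter only by being higher, and its bound is part of the median and of the 2-fold count. None of the markers of both lists had a signal of 0 on either array. Signals are relative to the total of an array, and the part of these higher transcripts in the lower sarcomere signals was not tested. How much muscle came away with each skin when it was removed is not given in the labels, and with 1 array per genotype it cannot be told apart from the genotype.

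**Figure D5:**
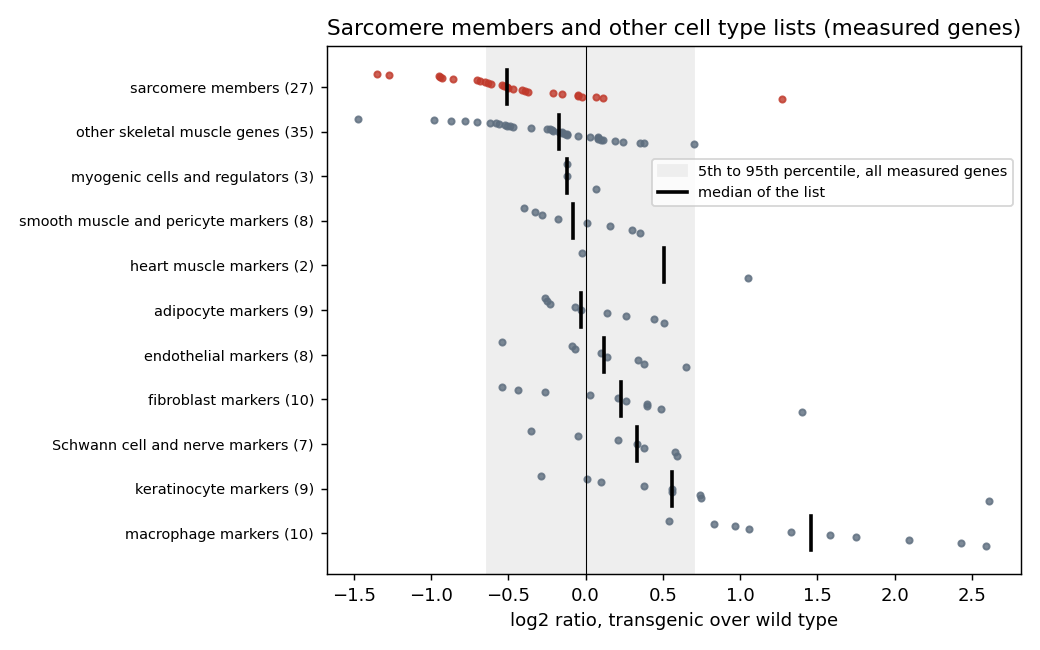
Log2 ratio (transgenic over wild type) of the measured genes (number in brackets) of the sarcomere list, in red, and of 10 other lists, with each list's median as a black bar. The grey band spans the 5th to 95th percentile of all measured genes. The sarcomere median (-0.51) is the lowest of the 11, the adipocyte median is -0.03 and the macrophage median 1.46.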

How the data were processed

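Biotin-labelled total RNA of back skin was hybridised to 1-colour oligonucleotide arrays, 1 per genotype, per the labels. The authors deposited a linear signal intensity for each probe set and had scaled it: the 2% trimmed mean was 100.03 on both arrays. The software that made it was not given in the sources used here. Detection calls and scanner files were not used. Of 22690 probe sets 64 were controls and 20380 had 1 gene in the platform annotation of 2016, and only these were named, with symbols updated through a GRCm38.p6 gene table. Signals were brought to equal trimmed means, raised to a floor at the 40th percentile of non-control signals (34.7) and log2-transformed. The floor lay under 59.7% of the transgenic and 60.2% of the wild-type signals. A gene was its brightest probe set, and a ratio with 1 array at the floor is a bound. Genes were compared at 2-fold and 1.5-fold. Printed signals are as deposited. The number of arrays limits the precision, and there is no test.

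The members, lists, isoform classes and pairs were chosen with earlier results of these data known. Every member is accounted for. Of other genes the 2 highest and 2 lowest of each list are named, with markers below the floor. Acta2, Trdn, Cavin4, Hrc and Smpx were added with their values in view. So were Cacng1, Tmod4, Capn3, Cox7a1, Asb5, Jph1, Dysf, Cd163 and Pck1. The scripts were tested on simulated arrays with 3-fold changes planted in bright genes. That test does not cover smaller differences or signals near the floor. Alternatives covered scaling, the floor, the choice of probe set and the fold limit. Python 3.11.15, pandas 2.3.3 and statsmodels 0.14.6 were used.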

Additional observations from a re-analysis of the deposited data

How the results depend on the processing

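Over 9 alternatives of scaling, floor and probe set choice, the median of the members ran from -0.51 to -0.36 (with a pseudocount of 16, over all 35 genes with a probe set), and that of the fast isoforms from -0.61 to -0.56. Members below 0 numbered 22 of 27 with median or lowess centring, 29 of 35 with the pseudocount and 19 of 21 without suffixed probe sets. Of the 27 members, 21 stayed below 0 wherever they were measured, Myoz1 stayed above 0, and 5 (Acta1, Mb, Myh2, Tpm1 and Tpm2) took both signs. Members at least 2-fold lower numbered 0 under a floor at the 60th percentile, 11 at a limit of 1.5-fold and 0 at 3-fold. Those at least 2-fold higher numbered 0 at 3-fold, with the mean over probe sets, and without suffixed probe sets, where Tpm2 was at -0.17. With the floor at the 20th percentile 5 slow isoforms were measured. The developmental median was -1.07 with the floor at the 20th percentile, -0.19 at the 60th and -0.50 with the pseudocount, the adult median -0.51 at the 20th, and their difference 0.17 at the 60th and -0.22 with the pseudocount. The median of other skeletal muscle genes was -0.13 centred on the median, -0.12 with lowess, -0.31 under the 20th percentile floor and -0.39 at the 60th. At each floor the set of genes measured and the bound of Myh8 change by construction. The cause of the other shifts was not tested. A difference of the fast and slow medians had no main value. No paired analysis was possible because each genotype has 1 array.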
